A study of Homo sapiens with 9 samples.

Results

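Transcripts of 10 genes of the BCL2 apoptosis family were followed in prostate cancer cells. The members were taken by symbol from the deposited table of 28216 genes, and all 10 symbols were found there. BCL2, BCL2L1 (BCL-XL), BCL2L2 (BCL-W) and MCL1 are the 4 guardians, which keep cells alive. BAX and BAK1 are the 2 effectors, and BID, BCL2L11 (BIM), BMF and PMAIP1 (NOXA) are 4 BH3-only genes.

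The family decides whether the outer membrane of the mitochondria stays closed. BH3-only proteins sense stress and either activate the effectors or occupy the guardians, and free effectors open pores through which cytochrome c leaves and starts the caspases. BCL2 itself has long been studied in prostate cancer in connection with the withdrawal of androgen.

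RNA came from PC3 and LNCaP cells, both established lines grown from metastases of prostate cancer, with wild type given as the genotype in the labels. PC3 cells were untreated and grew in F12K medium with 10% fetal bovine serum. LNCaP cells of clone FCG spent 24 h in RPMI medium free of phenol red with 10% charcoal-stripped serum. They then received either 10 nM androgen or 0.01% ethanol, the vehicle, and were harvested after 48 h. The labels name the androgen as DHT, whereas the main text of the study names R1881. Each of the 3 groups had 3 libraries of poly(A)-selected RNA. The line, medium, serum and treatment all differed between PC3 and LNCaP cells, so their parts in a difference between the lines cannot be told apart. The study's methods speak of independent experiments in general and of a batch term for the RNA, but the sources used here tie no library to a culture or a batch. The p-values therefore measure the spread between these libraries, which may be technical.

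Libraries held from 17397706 to 25640325 reads on genes. By these markers the libraries matched the cell lines in their labels, which leaves the androgen and vehicle labels unchecked. All 6 LNCaP markers, KLK3, KLK2, TMPRSS2 and FOLH1 among them, were lower in PC3 cells and all 6 PC3 markers were higher there. KLK2 had 0 counts in every PC3 library. The summed PC3 markers reached 0.405% to 0.981% of their PC3 level in the LNCaP libraries, and the summed LNCaP markers 0.285% to 0.429% of their androgen-treated level in the PC3 libraries. Proliferation markers moved with androgen, and all 5 fell. Their summed level was 321 to 385 CPM with androgen, 1114 to 1277 with vehicle and 490 to 1073 in PC3 cells. CPM are counts scaled to a common library size with edgeR's TMM factors.

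All 10 members changed in LNCaP cells with androgen. By edgeR's quasi-likelihood test with Benjamini-Hochberg adjustment, 3 members rose and 7 fell, at an adjusted p-value under 0.05. Over all 11697 genes tested, 37.1% rose and 37.8% fell by the same rule. At a fold change of at least 2 as well, BCL2L1 rose and BCL2, BID and BMF fell, against 6.54% and 7.49% of all genes. BCL2 had more than 3 CPM, the level needed for testing, in its vehicle-treated libraries alone. The median log2 fold change was -0.55 over the members and -0.0068 over all genes tested. In bulk RNA, fewer cells with a transcript and less of it in each cell cannot be told apart.

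Between the lines, the family was higher in PC3 cells in some members and lower in others. Against androgen-treated LNCaP cells, 6 of the 9 members tested were higher and 1 was lower, while 42.9% and 41.1% of 12541 genes were. With a fold change of at least 2, BCL2L1, BAK1 and PMAIP1 were higher and BCL2L11 was lower, and the shares of all genes were 24% and 22.1%. Against vehicle-treated LNCaP cells, 4 of 10 members were higher and 3 were lower, with 42.6% and 40.8% of 12686 genes. BCL2L1, BAK1 and PMAIP1 were again at least 2-fold higher, and BCL2, BCL2L11 and BMF at least 2-fold lower, with 22.2% and 21% of all genes. The median log2 fold change of the members was 0.88 against androgen-treated cells (all genes 0.036) and -0.048 against vehicle-treated cells (all genes 0.026). The 3 comparisons share libraries in pairs, so they are given side by side and are not independent of each other.

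**Figure D1:**
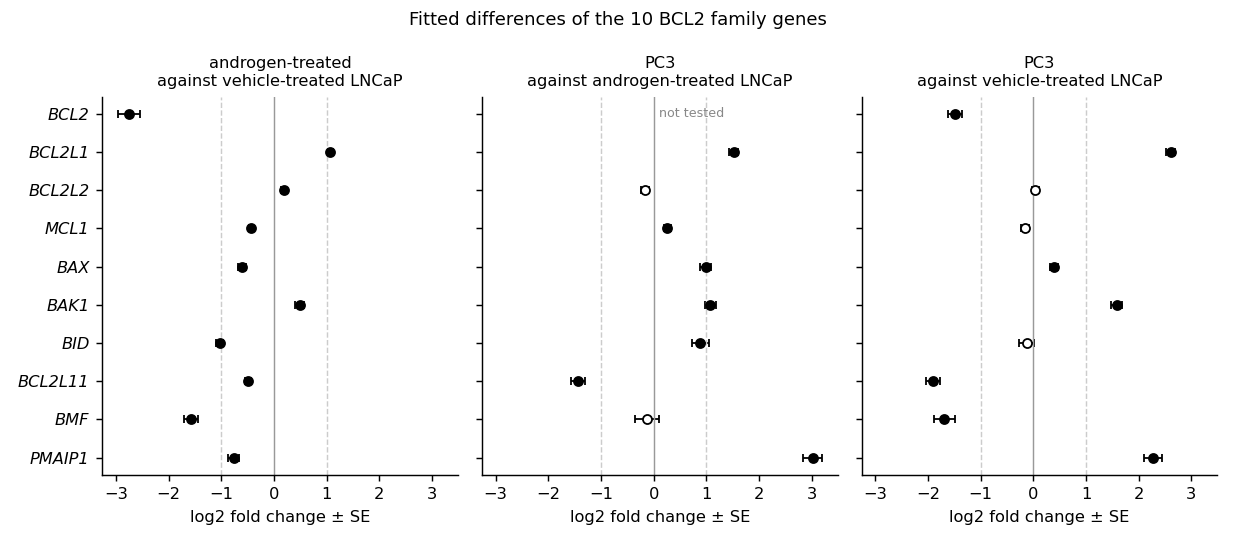
Log2 fold change (horizontal axis) of each of the 10 genes in the 3 comparisons, with bars for the standard error of the edgeR fit and dashed lines at a fold change of 2. Filled points have an adjusted p-value under 0.05, and all 10 points are filled for androgen against vehicle. BCL2 has no point in PC3 against androgen-treated cells, where it failed the filter.

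Promoter sequences are shown for BCL2L1, BMF and PMAIP1, which differed at least 2-fold between groups, and for BAX, the only one of 8 members searched with an E-box. They are the bases upstream of the annotated gene, 5′ to 3′, from the RefSeq promoter table of GRCh38.p14. Capitals mark matches to 4 motifs, which were searched on both strands. The TATA box was taken as TATAAA and the E-box as CACGTG. The GC box was GGGCGG, and the half-site bound by CREB was TGACG. The sequences lie at chr20:31723990-31724213 on the minus strand for BCL2L1, chr19:48954625-48954814 on the plus strand for BAX, chr15:40108893-40109129 on the minus strand for BMF and chr18:59899746-59899995 on the plus strand for PMAIP1.
BCL2L1: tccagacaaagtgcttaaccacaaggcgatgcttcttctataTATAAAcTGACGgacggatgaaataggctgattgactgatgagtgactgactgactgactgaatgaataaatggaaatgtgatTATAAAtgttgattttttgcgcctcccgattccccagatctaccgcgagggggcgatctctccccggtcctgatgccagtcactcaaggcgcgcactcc
BAX: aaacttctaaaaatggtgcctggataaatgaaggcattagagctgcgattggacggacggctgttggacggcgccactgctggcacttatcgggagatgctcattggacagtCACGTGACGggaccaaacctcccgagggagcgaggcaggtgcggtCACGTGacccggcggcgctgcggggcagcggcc
BMF: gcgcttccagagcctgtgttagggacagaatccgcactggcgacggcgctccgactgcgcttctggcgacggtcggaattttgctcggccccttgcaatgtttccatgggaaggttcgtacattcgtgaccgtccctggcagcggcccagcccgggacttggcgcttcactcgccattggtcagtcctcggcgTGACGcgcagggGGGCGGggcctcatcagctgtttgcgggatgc
PMAIP1: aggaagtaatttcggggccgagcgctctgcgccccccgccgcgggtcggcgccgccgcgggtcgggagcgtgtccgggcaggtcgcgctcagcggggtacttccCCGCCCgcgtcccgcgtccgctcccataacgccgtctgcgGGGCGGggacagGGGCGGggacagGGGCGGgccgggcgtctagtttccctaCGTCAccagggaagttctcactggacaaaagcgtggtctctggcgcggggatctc

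In these letters BCL2L1 held 2 TATAAA matches and no GC box, and PMAIP1 held 4 GC boxes. In BAX a TGACG match overlapped a CACGTG match. The RefSeq table gave a window of 250 bases before the start for 8 of the 10 members, and BCL2L2 and MCL1 were not matched. For each of the 8, the window nearest to the annotated start was searched whole, also where fewer bases are printed. GC boxes were found in 5 of these 8 windows, in BAX outside the bases printed, and in 42.6% of 35116 windows in the table, which can hold several for a gene. Matches were also found to TGACG in 5 of 8 (21.2%), CACGTG in BAX alone (6.34%) and TATAAA in BCL2L1 alone (10.7%). A match in a window is a description of its letters and says nothing of binding.

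BCL2L1 (chromosome 20, 31664452 to 31723989, minus strand, GRCh38) encodes BCL-XL, a guardian of the outer mitochondrial membrane. Its level was 630.4, 568 and 680 CPM in the 3 PC3 libraries. In androgen-treated LNCaP cells it was 236, 209 and 206 CPM, and with vehicle 104, 98.7 and 101 CPM. The 3 groups formed a staircase without overlap, from vehicle to androgen to PC3. Androgen raised BCL2L1 2.1-fold, by 1.07 on the log2 scale (standard error, SE, 0.05, edgeR adjusted p = 2.81e-10). PC3 cells held 2.86-fold more than androgen-treated LNCaP cells (log2 fold change 1.52, SE 0.09, edgeR adjusted p = 1.66e-06). Against vehicle the difference was 6.09-fold (log2 fold change 2.61, SE 0.09, edgeR adjusted p = 8.11e-08). The antisense RNA ABALON covers 41.3% of the exonic bases of BCL2L1. The strands were counted apart, and ABALON had at most 44 counts in a library. Counted without strand, BCL2L1 had 9592 reads in PC3 replicate 1 in place of 15810.

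BCL2 (chromosome 18, 63123346 to 63320128, minus strand), the founding member of the family, was scarce in all groups and moved against BCL2L1 when androgen was given. With vehicle it had 106, 119 and 135 counts, or 5.55, 6.35 and 6.70 CPM. With androgen it had 17, 15 and 26 counts, or 0.786, 0.736 and 1.29 CPM. PC3 libraries lay between, with 54, 52 and 57 counts, or 2.15, 2.34 and 2.24 CPM. None of the 3 groups overlapped. BCL2 was 6.75-fold lower with androgen than with vehicle (log2 fold change -2.75, SE 0.20, edgeR adjusted p = 4.5e-08). It was the largest change among the 10 members in this comparison. PC3 cells were 2.8-fold lower than vehicle-treated cells (log2 fold change -1.49, SE 0.13, edgeR adjusted p = 1.81e-05). Both comparisons kept BCL2 only through its vehicle-treated libraries, the group where it was highest, so the filter itself favoured a lower value against vehicle. Without the filter its log2 fold changes were -2.73 (SE 0.20) with androgen and -1.48 (SE 0.15) in PC3 cells against vehicle. Between PC3 and androgen-treated cells BCL2 failed the filter of more than 3 CPM in at least 3 libraries. Unfiltered, it was 2.39-fold higher in PC3 cells (log2 fold change 1.26, SE 0.25, edgeR adjusted p = 0.00104).

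MCL1 (chromosome 1, 150560895 to 150579738, minus strand) encodes a guardian whose protein is short-lived. Its transcripts were abundant and changed little. The 3 PC3 libraries had 319, 309 and 340.1 CPM, the androgen-treated 279.9, 259 and 264 CPM and the vehicle-treated 354, 368 and 342 CPM. Androgen-treated libraries were the lowest and overlapped with neither other group. MCL1 fell by 0.44 on the log2 scale with androgen (SE 0.04, edgeR adjusted p = 5.1e-07), a 1.35-fold decrease. It was 1.2-fold higher in PC3 than in androgen-treated cells (log2 fold change 0.26, edgeR adjusted p = 0.00731), a call that was lost when any 1 androgen-treated library was left out and the filter applied again (adjusted p = 0.061, 0.152 and 0.139 from edgeR). With the tested genes kept as in the full comparison, that call remained, at adjusted p-values of 0.00399 to 0.0365 from edgeR. Against vehicle, MCL1 in PC3 cells had a log2 fold change of -0.16 and missed the threshold (adjusted p = 0.0551 from edgeR).

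BCL2L2 (chromosome 14, 23298790 to 23311751, plus strand), which encodes the guardian BCL-W, had the narrowest range of the family. Its levels were 46.9 to 51.5 CPM in PC3 cells, 51.7 to 57.5 CPM with androgen and 45.9 to 48.3 CPM with vehicle. Androgen raised it by 0.18 on the log2 scale (SE 0.05, edgeR adjusted p = 0.00729). Between PC3 cells and either LNCaP group it did not pass, with log2 fold changes of -0.17 (adjusted p = 0.0662) and 0.03 (adjusted p = 0.664) from edgeR. The readthrough gene BCL2L2-PABPN1 shares 16.8% of the exonic bases of BCL2L2 on the same strand and was listed at 0 counts in every library. Of the 74-nt stretches of BCL2L2, 14.4% also occur in same-strand transcripts of other genes, so its level is uncertain.

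**Figure D2:**
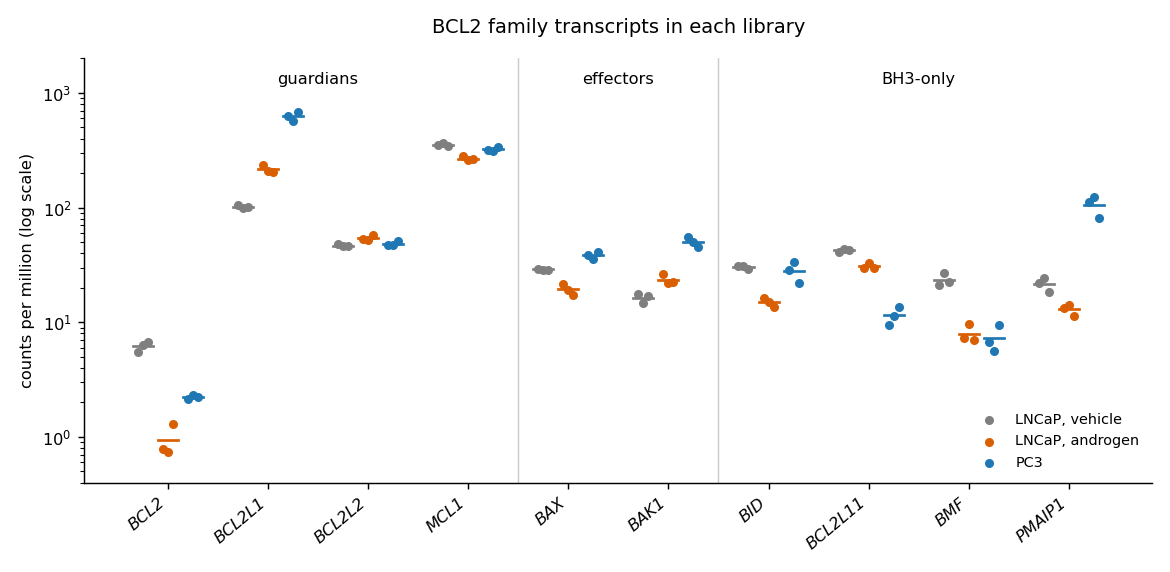
CPM of each of the 10 genes (vertical axis, log scale) in each library, with a point per library and a line at the mean of the 3 libraries of a group. BCL2L1 rises from 101 with vehicle to 217 with androgen and 626 in PC3, PMAIP1 stands at 80.9 to 123 in PC3 and at 11.3 to 24.2 in LNCaP cells, and BCL2 is the lowest gene in every group.

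The effectors BAX and BAK1 moved in opposite directions with androgen. BAX (chromosome 19, 48954815 to 48961798, plus strand) had 38.7, 35.9 and 41.3 CPM in PC3 cells, 21.6, 19.3 and 17.2 CPM with androgen and 29.4, 28.5 and 28.8 CPM with vehicle. No 2 groups overlapped, and androgen-treated cells were the lowest. BAX was 1.52-fold lower with androgen than with vehicle (log2 fold change -0.61, SE 0.07, edgeR adjusted p = 7.28e-06). PC3 cells were 1.98-fold higher than androgen-treated cells (log2 fold change 0.99, SE 0.11, edgeR adjusted p = 4.6e-05), just under the 2-fold rule. This log2 fold change lay on both sides of the rule elsewhere. It was 0.982 to 1.024 under other settings and 0.817 to 1.169 with each library left out. PC3 cells were 1.32-fold higher than vehicle-treated cells (log2 fold change 0.40, SE 0.08, edgeR adjusted p = 0.00184).

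BAK1 (chromosome 6, 33572547 to 33580293, minus strand) was highest in PC3 cells, with 55.1, 49.6 and 45.5 CPM. It reached 26.2, 22.2 and 22.4 CPM with androgen and 17.6, 14.6 and 17.1 CPM with vehicle, again with no overlap. Androgen raised it 1.41-fold (log2 fold change 0.49, SE 0.08, edgeR adjusted p = 0.000162). PC3 cells held 2.1-fold more than androgen-treated cells (log2 fold change 1.07, SE 0.10, edgeR adjusted p = 2.27e-05) and 3-fold more than vehicle-treated cells (log2 fold change 1.58, SE 0.10, edgeR adjusted p = 3.03e-06). The first of these fell under a fold change of 2 without androgen-treated replicate 2 (log2 fold change 0.94), without androgen-treated replicate 3 (0.95) and, with the genes tested kept, without PC3 replicate 1 (0.99). Of its 74-nt stretches, 27.9% match more than 1 genomic place and 7.88% match RNAs from elsewhere, so its level is uncertain.

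All 4 BH3-only members fell with androgen, as did 37.8% of all genes tested. Of the other BH3-only genes tested, BIK rose and BAD and BBC3 did not pass, with log2 fold changes of 0.31, 0.01 and -0.10. BMF and BID fell at least 2-fold, and PMAIP1 and BCL2L11 by less.

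PMAIP1 (chromosome 18, 59899996 to 59904305, plus strand) encodes NOXA, which binds chiefly to MCL1. It had the widest range of the family. PC3 libraries held 113, 123 and 80.9 CPM. Androgen-treated libraries held 13.4, 14.02 and 11.3 CPM, and vehicle-treated libraries 22.1, 24.2 and 18.4 CPM. The lowest PC3 library was above every LNCaP library, and no androgen-treated library reached a vehicle-treated one. PMAIP1 was 8.09-fold higher in PC3 than in androgen-treated cells (log2 fold change 3.02, SE 0.17, edgeR adjusted p = 1.12e-06). Against vehicle it was 4.82-fold higher (log2 fold change 2.27, SE 0.17, edgeR adjusted p = 6.69e-06). Androgen lowered it 1.7-fold (log2 fold change -0.77, SE 0.11, edgeR adjusted p = 2.78e-05).

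BCL2L11 (chromosome 2, 111119378 to 111168444, plus strand) encodes BIM, which binds all guardians, and was lowest in PC3 cells. Its levels were 9.53, 11.4 and 13.5 CPM in PC3 cells, 29.7, 33.2 and 29.5 CPM with androgen and 40.9, 43.8 and 42.6 CPM with vehicle. The groups were apart, with vehicle highest. In PC3 cells BCL2L11 was 2.7-fold lower than with androgen (log2 fold change -1.43, SE 0.14, edgeR adjusted p = 2.49e-05) and 3.75-fold lower than with vehicle (log2 fold change -1.91, SE 0.13, edgeR adjusted p = 3.48e-06). Androgen lowered it 1.41-fold (log2 fold change -0.49, SE 0.07, edgeR adjusted p = 1.43e-05).

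BMF (chromosome 15, 40087890 to 40108892, minus strand), whose protein is held at the cytoskeleton until it is released, was high in a single group. Vehicle-treated libraries had 21.0, 26.8 and 22.3 CPM. With androgen it was at 7.26, 9.66 and 7.004 CPM, and in PC3 cells at 6.74, 5.66 and 9.56 CPM. These last groups overlapped, and both lay below every vehicle-treated library. Androgen lowered BMF 2.99-fold (log2 fold change -1.58, SE 0.13, edgeR adjusted p = 1.52e-07). PC3 cells were 3.23-fold lower than vehicle-treated cells (log2 fold change -1.69, SE 0.20, edgeR adjusted p = 9.44e-05). Between PC3 and androgen-treated cells the log2 fold change was -0.13 with a standard error of 0.22 (adjusted p = 0.598 from edgeR).

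BID (chromosome 22, 17734138 to 17774770, minus strand) links death receptors to the mitochondria once caspase-8 cuts it. It had 28.8, 33.4 and 21.9 CPM in PC3 cells, 16.3, 15.2 and 13.7 CPM with androgen and 30.8, 30.7 and 28.9 CPM with vehicle. PC3 and vehicle-treated libraries overlapped, and androgen-treated libraries were below both. BID fell 2.04-fold with androgen (log2 fold change -1.03, SE 0.07, edgeR adjusted p = 2.82e-08). That fold change was under 2 with unstranded counts (log2 fold change -0.94) and without androgen-treated replicate 3 (-0.97). It was 1.85-fold higher in PC3 than in androgen-treated cells (log2 fold change 0.88, SE 0.16, edgeR adjusted p = 0.00102). Against vehicle it did not pass, with a log2 fold change of -0.13 and a standard error of 0.15 (adjusted p = 0.429 from edgeR). PC3 replicate 3 had the lowest PMAIP1 and BID and the highest BMF of the PC3 libraries.

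Per kilobase of exon, which allows levels of different genes to be compared, the order of the members differed between groups. In PC3 cells BCL2L1 led with 149 ± 13.3 CPM per kb (SD, n = 3), ahead of MCL1 with 51.8 ± 2.57 and PMAIP1 with 48.4 ± 10.1, and the last pair overlapped. BAK1, BAX, BCL2L2, BID, BCL2L11, BMF and BCL2 followed, and only BCL2L11 and BMF overlapped among neighbours in this rest. With androgen BCL2L1 (51.7 ± 3.90 CPM per kb) still led MCL1 (43.0 ± 1.75), without overlap. The next were BCL2L2 and BAK1, which overlapped, then BAX, PMAIP1, BCL2L11, BID, BMF and BCL2. With vehicle MCL1 was first with 57.0 ± 2.09 CPM per kb and BCL2L1 second with 24.1 ± 0.706. BAX, PMAIP1 and BCL2L2 overlapped as neighbours, as did BAK1 and BID, and BCL2L11, BMF and BCL2 closed the order. BCL2 was last in all 3 groups, at 0.178, 0.0743 and 0.491 CPM per kb. With the length of the longest transcript in place of all exons, the leading members kept these places, while BAK1 fell behind BAX in PC3 and androgen-treated cells, BCL2L11 fell behind BID with androgen, and the places from the fourth to the eighth changed with vehicle.

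Shares of the family's transcripts were taken by role and by gene. Guardians made up 68.9% ± 4.12 (SD, n = 3) of the summed CPM per kb in PC3 cells, 76.0% ± 1.06 with androgen and 66.6% ± 0.236 with vehicle. Effectors held a similar share in all 3 groups, at 12.3%, 13.0% and 13.6%, while their summed level was 37.6, 18.1 and 18.6 CPM per kb. BH3-only members held 18.9% ± 3.86 in PC3 cells, 11.0% ± 0.982 with androgen and 19.9% ± 1.06 with vehicle. Among the guardians, BCL2L1 made up 48.6% of the family in PC3 cells, 37.1% with androgen and 17.6% with vehicle. The share of MCL1 ran the other way, with 16.9%, 30.9% and 41.6%, although its level was 51.8, 43.0 and 57.0 CPM per kb. Among the BH3-only members, PMAIP1 alone was 15.8% of the family in PC3 cells, against 4.24% and 7.19% in LNCaP cells. These shares are descriptions and were not tested.

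**Figure D3:**
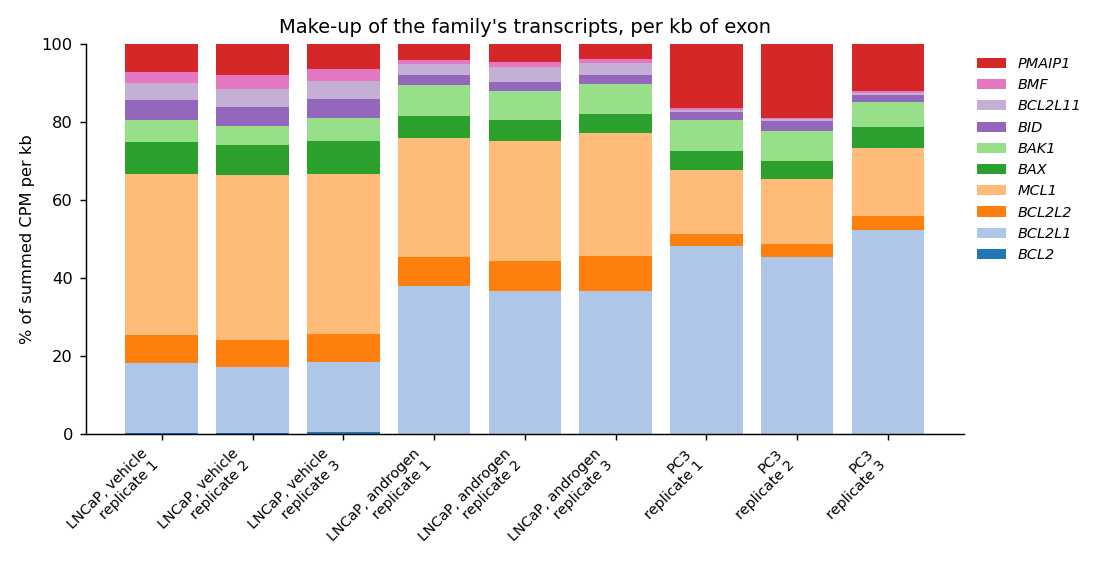
Share of each gene in the summed CPM per kb of the 10 genes (vertical axis, %), with a bar per library. BCL2L1 widens from 17.6% of the bar with vehicle to 37.1% with androgen and 48.6% in PC3, MCL1 narrows from 41.6% to 30.9% and 16.9%, and PMAIP1 is widest in PC3.

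Ratios within a library do not depend on its depth. The ratio of BCL2L1 to MCL1 per kb was 2.87 ± 0.127 (SD, n = 3) in PC3 cells, 1.2 ± 0.0461 with androgen and 0.424 ± 0.0226 with vehicle. That of BCL2L1 to its BH3-only partner BCL2L11 was 89.0 ± 14.9, 11.4 ± 1.33 and 3.84 ± 0.246. For MCL1 and its partner PMAIP1 the ratio was 1.12 ± 0.318 in PC3 cells, 7.33 ± 0.851 with androgen and 5.83 ± 0.619 with vehicle. BAX stood at 0.665 ± 0.0966 of BAK1 in PC3 cells and 0.701 ± 0.0438 with androgen, but at 1.51 ± 0.136 with vehicle. The ranges of the 3 groups were apart for the ratio of BCL2L1 to MCL1 and for that of BCL2L1 to BCL2L11. For MCL1 to PMAIP1 they overlapped between the LNCaP groups, and for BAX to BAK1 between PC3 and androgen-treated cells.

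The genes most like the pair of members with the widest ranges were sought over the 9 libraries. For PMAIP1 they were ORC4, ZNF35 and SLC6A6, with Pearson's r of log2 CPM of 0.999, 0.998 and 0.998. For BCL2 they were GAS6-AS1, PKP4 and PAIP2B, with r of 0.986, 0.985 and 0.984. The libraries form 3 groups, so these values describe the order and spacing of the groups.

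Other BCL2 family genes, a list of 11, had 6 genes that passed the filter in each comparison. With androgen 3 rose and 1 fell, with a median log2 fold change of 0.10. BOK, an effector-like member, rose by 0.44 on the log2 scale and the BH3-only gene BIK by 0.31, while BCL2L12 fell by 0.65. Among the 6 tested, BIK differed most between the lines, with 22 to 29 counts in PC3 libraries, 156 to 192 with androgen and 110 to 147 with vehicle. Its log2 fold change in PC3 cells was -3.04 against androgen and -2.71 against vehicle. The BH3-only gene BAD was higher in PC3 cells, by 0.74 and 0.77. BBC3 (PUMA), also a BH3-only gene, was lower in PC3 cells, at -0.58 and -0.66 on the log2 scale. It had 49 to 79 counts in PC3 libraries, 55 to 100 with androgen and 70 to 84 with vehicle. Against androgen it barely passed (edgeR adjusted p = 0.0478), and the CPM of these libraries overlapped. In PC3 cells against androgen 2 of the 6 were higher and 3 lower, and against vehicle 3 and 3. Counts in this list and those that follow stand beside these shares of all genes at an adjusted p-value under 0.05. With androgen 37.1% rose and 37.8% fell. In PC3 cells 42.9% were higher and 41.1% lower than with androgen, and 42.6% and 40.8% than with vehicle.

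A few family genes below the filter were seen in PC3 cells alone or nearly so. BCL2A1, a guardian best known from blood cells, had 46, 53 and 45 counts in PC3 libraries, 2, 0 and 0 with androgen and 0 in every vehicle-treated library. BCL2L10 had 22, 15 and 19 counts in PC3 libraries, 0, 0 and 1 with androgen and 0 with vehicle. Where 0 reads were counted, up to 3 could have been missed, or 0.117 to 0.172 CPM depending on depth. This limit covers counting error only. The androgen-treated library with 2 BCL2A1 counts was also the one with the highest PC3 markers, 0.981% of their PC3 level. Whether these reads and the markers are linked was not tested. HRK had 15 to 41 counts in PC3 libraries, 9 to 10 with androgen and 23 to 28 with vehicle. BCL2L14 had 0 counts in every PC3 library, 5 to 11 with androgen and 2 to 4 with vehicle. BCL2L15 had at most 8 in any library.

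Downstream of the pores lie the apoptosome and the caspases, a list of 15 genes with 14 tested. With androgen 4 rose and 5 fell (median log2 fold change -0.065), and none changed 2-fold, whereas 6.54% of all genes rose and 7.49% fell by that rule. CASP2 fell by 0.85 on the log2 scale and DFFB, a nuclease, by 0.52, while CASP9, the caspase of the apoptosome, rose by 0.39 and AIFM1 by 0.26. In PC3 cells 7 were higher and 5 lower than with androgen (median 0.21). HTRA2, a mitochondrial protease, and CASP2 were higher, by 1.31 and 1.01. ENDOG, a mitochondrial nuclease, was lower, with a log2 fold change of -1.80. Against vehicle 6 were higher and 6 lower (median -0.0063), and ENDOG was again lower, at -1.63.

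Inhibitors of apoptosis, which block caspases or their activation, were a list of 7 genes. With androgen BIRC3 (cIAP2) rose from 6.76 to 47.3 CPM, by 2.77 on the log2 scale (SE 0.23, edgeR adjusted p = 1.51e-07). BIRC5 (survivin), which also acts in mitosis, fell from 169 to 40.9 CPM, with a log2 fold change of -2.08 (SE 0.07, edgeR adjusted p = 4.81e-11). The 5 proliferation markers fell in the same libraries, and their part in the fall of BIRC5 was not tested. BIRC6 rose by 0.41 and NAIP fell by 1.25, and among the 6 tested 3 rose and 2 fell (median 0.21). PC3 libraries held 356, 417 and 205 CPM of BIRC5, against 157 to 178 CPM with vehicle. In PC3 cells BIRC5 was 7.88-fold higher than with androgen (SE 0.255 on the log2 scale) and 1.89-fold higher than with vehicle (SE 0.229). BIRC2 (cIAP1) was about 2-fold higher against both, with log2 fold changes of 1.01 and 1.06, and XIAP was lower, with -1.16 and -0.75. Against androgen 2 of 5 were higher and 3 lower (median -0.26), and against vehicle 4 of 6 and 2 (median 0.53).

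Death receptor genes, upstream of BID, were a list of 11 with 9 tested. With androgen 5 rose and 1 fell (median 0.26), as did 37.1% and 37.8% of all genes tested. TNFRSF10B, a receptor for TRAIL, rose from 167 to 504 CPM and the adaptor TRADD from 13.0 to 37.1 CPM, by 1.56 and 1.49 on the log2 scale. TNFRSF10D, a decoy receptor for TRAIL, was all but absent from PC3 cells, with 1, 1 and 4 counts against 1145 to 1711 in LNCaP libraries. FAS was lower in PC3 cells, at 33 to 45 counts against 110 to 176, or -2.10 and -2.23 on the log2 scale. FADD, the adaptor of FAS, was higher in PC3 cells, by 0.53 and 0.81. In PC3 cells 2 of 9 were higher and 5 lower than with androgen (median -0.86), and 4 and 3 than with vehicle (median 0.10).

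The list for turnover of the MCL1 protein held 5 genes, and none changed 2-fold in any comparison. Of all genes 6.54% rose and 7.49% fell 2-fold with androgen. In PC3 cells 24% were 2-fold higher and 22.1% lower than with androgen, and 22.2% and 21% than with vehicle. With androgen FBXW7, a ubiquitin ligase subunit, fell by 0.47 on the log2 scale and USP9X, a deubiquitinase, rose by 0.16. DESI1, which rose by 0.34, acts on SUMO and not on ubiquitin, yet is counted in the list and its medians. With androgen 3 rose and 1 fell (median 0.15). In PC3 cells 4 of 5 were higher and 1 lower than with androgen (median 0.46), and 3 and 1 than with vehicle (median 0.43). BTRC, a ubiquitin ligase subunit, was higher by 0.76 against both groups.

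**Figure D4:**
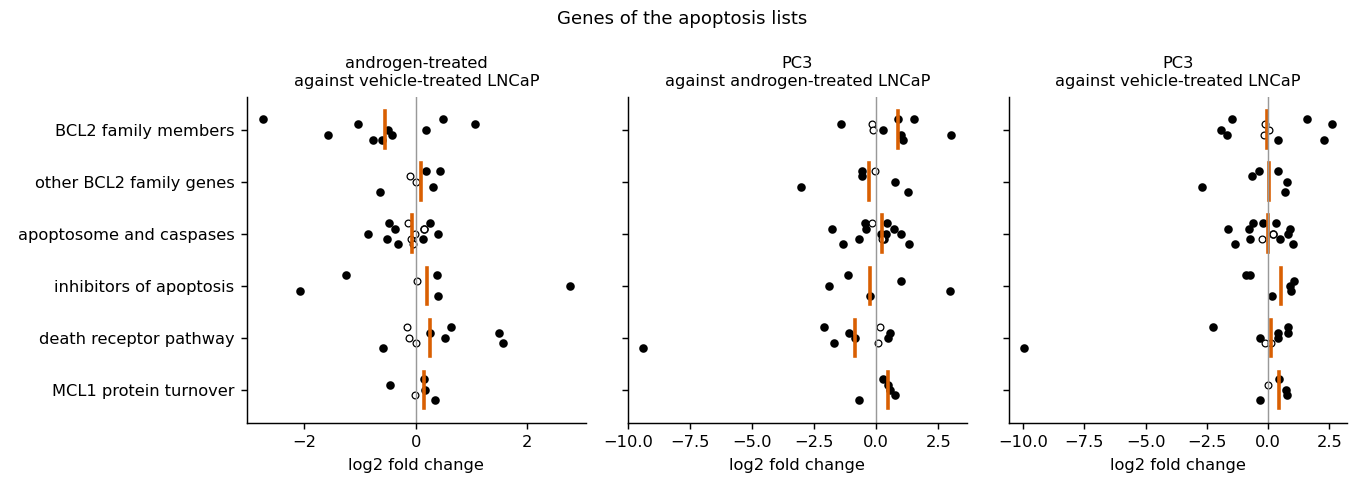
Log2 fold change (horizontal axis, own scale in each panel) of each gene tested in the 6 lists (rows) for the 3 comparisons. Filled points have an adjusted p-value under 0.05 from edgeR and orange bars mark the median of a list, which is -0.55 for the BCL2 family members with androgen and 0.88 for them in PC3 against androgen-treated cells.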

How the data were processed

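RNA of 9 libraries in 3 groups was analysed. According to the study's methods and the labels, adapters were trimmed with cutadapt (4.1 in the labels), reads were aligned to hg38 with STAR (2.7.7a), duplicates were removed with UMI-tools (1.1.2) and the rest mapped again. The gene annotation is not given in the sources used here. The authors deposited counts, whole reads per gene without normalization. All 253944 values equalled the forward-strand counts that STAR had written, 20.3% to 25.4% of reads were on no gene, and 2.33% to 3.06% of those on genes lay on the opposite strand.

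For each comparison a model of its own 6 libraries was fitted with edgeR 4.0.16 (R 4.3.3), TMM factors and the quasi-likelihood F test, on genes with more than 3 CPM in at least 3 libraries, and Benjamini-Hochberg adjustment ran over every gene in the fit. The study's own model was a likelihood ratio test in edgeR and included batch, a term omitted here because no source used here names the batches. Levels use TMM factors over all 9 libraries. Lengths, positions and shared 74-nt stretches come from GENCODE 44 on GRCh38, and list genes named are the 2 most raised and 2 most lowered past the test, except that some list genes and 1 list are not reported here. The members, lists and rules were chosen with earlier results of these data known.

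In simulated data with the real library sizes, among 12541 genes for PC3 against androgen, 12686 for PC3 against vehicle and 11697 for androgen against vehicle, the test recovered 98, 100 and 98 of 100 genes shifted by 1.5 on the log2 scale. It recovered 99, 97 and 99 of 100 shifted by 2, with 1, 2 and 0 false calls. Genes had to meet the 2-fold rule as well to be counted here. Only 200 genes were shifted in each comparison, whereas 10530, 10577 and 8763 genes passed the test in the real data. The simulation therefore does not cover calls with smaller shifts, or scaling where most genes differ. Deviations from group means over 10032 genes correlated with 0.156, 0.236 and 0.21 between LNCaP libraries of the same number across treatments. Different numbers gave -0.266 to 0.1. Between PC3 and LNCaP libraries of different numbers, the correlations ran from -0.237 to 0.22. Values of about that size cannot settle whether the numbers pair the LNCaP libraries. Alternatives were DESeq2 1.42.0 (size factors, Wald test), the likelihood ratio test, the replicate block, other filters, unstranded counts, 1 fit of all libraries and leaving out each library. Leaving out libraries with the tested genes kept was added after the data were seen. BCL2 had the lowest counts of the members, 15 to 135 per library.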

Additional observations from a re-analysis of the deposited data

Results flagged for a closer look

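Reads on the strand opposite to BID were more frequent than elsewhere in PC3 and androgen-treated LNCaP cells. They made up 6.98% of the reads on both strands on average in PC3 cells and 9.23% in androgen-treated cells. The opposite strand entered only the alternative that counts without strand. These shares stood out because they were above the share over all genes in the same libraries. Single libraries had 6.73%, 4.62% and 9.59% in PC3 cells, 6.88%, 10.7% and 10.1% with androgen and 2.81%, 2.54% and 3.795% with vehicle. The exact Clopper-Pearson 95% interval ran from 7.64% to 14.4% in the highest androgen-treated library, replicate 2, and from 1.43% to 4.16% in the lowest vehicle-treated library, also replicate 2. Other intervals overlapped, with 4.54% to 9.92% in androgen-treated replicate 1 and 2.42% to 5.64% in vehicle-treated replicate 3. That of PC3 replicate 2, from 3.25% to 6.33%, overlapped those of all 3 vehicle-treated libraries. These rest on 15 to 59 opposite-strand reads per library, and the intervals cover counting error only. Over all genes the opposite share was 2.33% to 3.06%. On the sense strand BID had 275 to 352 reads with androgen and 575 to 588 with vehicle, and on the opposite strand 26 to 37 and 15 to 23.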

How the results depend on the processing

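Of 574 values recomputed under an alternative, 552 kept their direction and their side of the threshold, 10 passed it in addition, 3 lost it (MCL1 in PC3 against androgen-treated cells, with log2 fold changes of 0.145 to 0.194) and 9 changed sign. Androgen against vehicle had 197 of 197 kept. None of the values that changed sign passed the test. For BMF in PC3 against androgen-treated cells, the log2 fold change ran from -0.31 to 0.15 when each library was left out (0.051 without PC3 replicate 1 and 0.154 without PC3 replicate 2), and was 0.028 without PC3 replicate 2 and 0.032 without androgen-treated replicate 2 when the genes tested were kept. For BCL2L2 in PC3 against vehicle-treated cells it ran from -0.079 to 0.159 (-0.051, -0.079 and -0.078 without vehicle-treated replicates 1, 2 and 3), and was -0.04 without PC3 replicate 3 with the genes kept. For BID in that comparison it ran from -0.255 to 0.099, the upper value without PC3 replicate 3. The cause of these changes was not tested.

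MCL1 in PC3 against vehicle-treated cells passed under the DESeq2 Wald test (adjusted p = 0.0474), in 1 edgeR fit of all 9 libraries (0.0165) and without vehicle-treated replicates 1, 2 or 3 (0.0244, 0.0355 and 0.019). BCL2L2 in PC3 against androgen-treated cells passed in the fit of all 9 libraries (edgeR adjusted p = 0.0405) and without androgen-treated replicates 1 or 2 (0.0309 and 0.0223). Both also passed without PC3 replicate 3 with the genes kept (edgeR adjusted p = 0.00359 and 0.0132). BCL2 could not be fitted when a vehicle-treated library was left out, because 2 libraries cannot meet the filter, and with the genes kept its log2 fold change with androgen was -3.06 to -2.62 over the 6 libraries left out in turn.

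Without a filter on low counts 9147, 8713 and 2941 genes were called in place of 5773, 5485 and 1641, for PC3 against androgen, PC3 against vehicle and androgen against vehicle. For PC3 against androgen-treated cells, 4 members were called at a fold change of 2, 5 without the filter and 6 with at least 10 counts in every library. Over all genes, 5773 of 12541, 9147 of 21303 and 4858 of 12159 were called under these settings. The replicate block treats libraries of the same number as pairs. With it, all 10 members changed with androgen and 4 were called 2-fold, against 9103 and 1638 of 11697 genes. Between the lines the numbers gave no sign of pairing (same-number correlations of -0.201 to 0.082), and 5756 and 5495 genes were called with the block. It changed no member's call. Summed over the members, unstranded counts gave 1007 CPM in PC3, 576 with androgen and 648 with vehicle, in place of 1241, 649 and 672, and the longest transcript as length gave 399, 186 and 188 CPM per kb in place of 306, 140 and 137.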
